A study of Mus musculus with 4 samples.

Results

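Lpl, Lipe, Fabp4 and Adig, genes of lipid uptake, lipolysis and fat droplets, were read from a PCR array of mouse liver, on which they are 4 of the 84 genes of adipogenesis and lipid metabolism. The members were chosen by gene symbol. The array had been run on 4 liver samples, 1 per group: a normal diet (ND), a high fat diet (HFD), and either diet with the *mol*-miR pool (below ND + pool and HFD + pool). All mice were C57BL/6J males aged 2 months at the start, 12 in total and 3 in each group. They received for 5 weeks the ND with 10% of kcal as fat or the HFD with 60%. In the pool groups small RNAs of *Moringa oleifera* (*mol*-miRs) were given by gavage every 2 days. Whether the other groups were gavaged with a vehicle, and whether a liver sample held the RNA of 1 mouse or of several, is not given in the sources used here. With 1 sample for each group and 1 well for each gene and sample there was no replicate check, so the differences carry no error and no p-value, and each one compares 2 liver samples.

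Fat that circulates as triglyceride is taken up by a tissue after lipoprotein lipase, the product of Lpl, has cut it into fatty acids at the vessel wall. Inside the adipocyte, hormone-sensitive lipase, the product of Lipe, takes part in the release of fatty acids from stored fat, insulin restrains it and adrenergic signals stimulate it. Fabp4 encodes the fatty acid carrier of adipocytes and macrophages, and Adig encodes adipogenin, a small adipocyte protein found at fat droplets. All these genes are best known from adipose tissue, and in the adult liver the expression of Lpl by hepatocytes is normally low.

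The measured value was the threshold cycle (Ct), the PCR cycle in which the fluorescence of the product passes a set level. A lower Ct means more template, by a factor of 2 per cycle when the product doubles each time. The Ct of a gene was set against the mean Ct of 5 reference genes (Actb, Gapdh, Gusb, Hprt and Hsp90ab1) in the same sample, which lay between 21.6 and 22.2. The genomic DNA control (MGDC), a well that detects untranscribed mouse DNA, came up at 26.8 cycles in ND, 28.8 in ND + pool, 34.7 in HFD and 33.4 in HFD + pool. Of the 12 wells of the positive PCR control over the 4 plates 7 had a Ct, and of the 12 wells of the reverse transcription control 2 did, both in ND + pool. The Ct of the positive PCR control was 16.9 to 17.9 in ND (2 of 3 wells) and 18.3 to 18.4 in ND + pool (3 of 3). It was 21.2 in HFD and 22.0 in HFD + pool, each from 1 of 3 wells, the other wells having no Ct. This control was thus later in both HFD samples than in both ND samples. The part of that shift in the differences below was not tested. The samples are named by the labels of their columns, and no well of the array checks which diet a column belongs to. The published account gives the opposite direction to the Ct columns for HFD vs. ND and for HFD + pool vs. HFD. For HFD + pool vs. ND it also counts more genes up than down, the reverse of the Ct columns. The direction of each difference below therefore holds only if the column labels are right. Whether the labels or the published directions are right was not tested.

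Lpl had a Ct of 22.3 in ND, 24.0 in ND + pool, 25.0 in HFD and 23.8 in HFD + pool. After subtraction of the reference mean these values became 0.71, 1.82, 3.05 and 1.59 cycles. Template of Lpl was thus most abundant in ND and least abundant in HFD, and the samples of the pool groups lay between them.

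The Ct of Fabp4 was 22.9 in ND, 24.1 in ND + pool, 25.0 in HFD and 24.3 in HFD + pool, or 1.32, 1.98, 3.08 and 2.11 cycles above the reference mean. Fabp4 spanned 1.76 cycles over the samples after normalization, the least of the members. The median span of the 84 genes was 2.76 cycles.

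For Lipe the Ct was 25.5 in ND, 27.4 in ND + pool, 29.1 in HFD and 27.9 in HFD + pool. Relative to the reference mean it lay at 3.92, 5.24, 7.18 and 5.66 cycles. The extremes were again ND and HFD.

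Adig had a Ct of 25.4 in ND, 27.6 in ND + pool, 31.1 in HFD and 29.6 in HFD + pool. Normalized to the reference genes these were 3.77, 5.40, 9.15 and 7.36 cycles. Its span of 5.38 cycles was the widest of the members and ranked 23 among the 84 genes. In ND the Ct of Adig and Lipe differed by only 0.15 cycles, whereas in HFD Adig came 1.97 cycles later than Lipe.

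**Figure D1:**
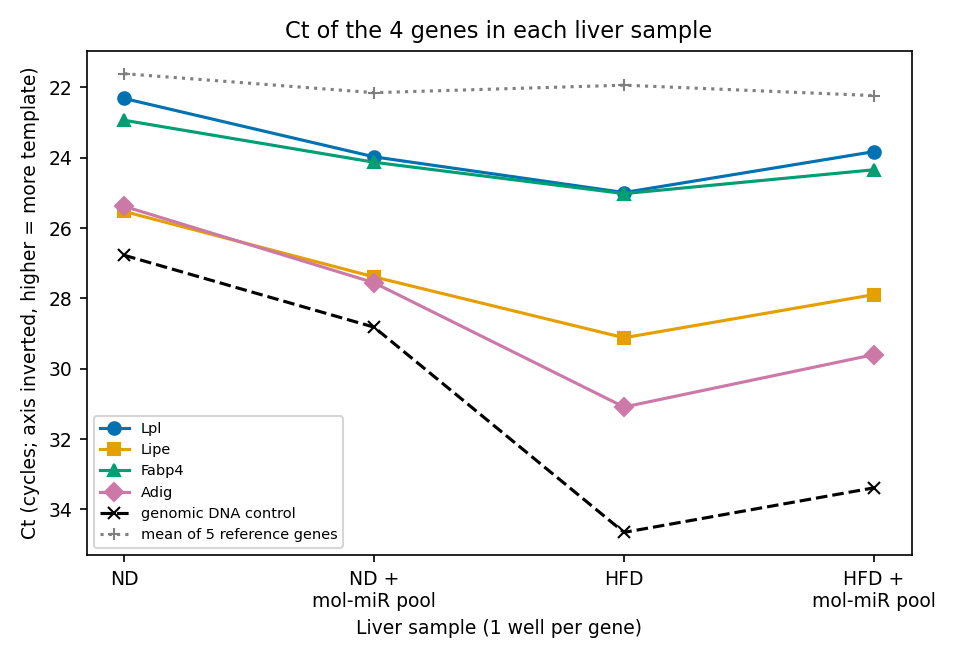
Ct in cycles (inverted axis) of Lpl, Lipe, Fabp4 and Adig in the 4 liver samples, with 1 well per point, beside the genomic DNA control and the mean of the 5 reference genes. Lines join the points of 1 gene. All members were earliest in ND and latest in HFD, and Adig and Lipe, side by side in ND, were 1.97 cycles apart in HFD.

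The set of start regions used here held 2 of the 4 members, Adig and Lipe, and these are shown with the motifs found in them. None was available for Lpl and Fabp4. Adig and Lipe are also the members whose Ct came closest to the genomic DNA control. The sequences are from RefSeq (mouse build GRCm38.p6). Each runs from 250 bases before the start of transcription to 50 bases after it. Both strands were searched for the nuclear receptor half-site AGGTCA, for the GC box GGGCGG, for the CCAAT box, for the palindromic E-box sequence CACGTG, and for the TATA box written as TATAAA, and capitals mark the matches.
Adig, chr2:158502362-158502661, plus strand: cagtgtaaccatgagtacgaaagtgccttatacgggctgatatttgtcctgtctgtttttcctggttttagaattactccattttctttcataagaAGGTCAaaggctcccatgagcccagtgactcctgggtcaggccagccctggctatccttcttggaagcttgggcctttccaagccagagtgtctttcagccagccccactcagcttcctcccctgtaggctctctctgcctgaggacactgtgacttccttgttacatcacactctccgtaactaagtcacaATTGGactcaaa
Lipe, chr7:25395938-25396237, minus strand: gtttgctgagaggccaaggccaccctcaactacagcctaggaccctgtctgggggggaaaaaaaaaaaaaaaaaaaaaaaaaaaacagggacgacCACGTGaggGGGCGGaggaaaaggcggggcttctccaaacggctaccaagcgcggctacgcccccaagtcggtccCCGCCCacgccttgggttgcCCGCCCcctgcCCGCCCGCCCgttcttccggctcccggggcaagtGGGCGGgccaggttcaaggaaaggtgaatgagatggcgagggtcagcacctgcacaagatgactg

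The Adig window held 1 AGGTCA, which 16.3% of the 32851 windows in the table contain. It also held 1 CCAAT on the opposite strand, at position 39 after the start of transcription. A CCAAT was present in 37.4% of the windows. In the Lipe window there were 6 GC boxes, the overlapping pair CCGCCCGCCC among them, and 1 E-box. A GC box was present in 35.7% of all windows and CACGTG in 7.15%, and TATAAA, found in neither sequence, in 13.6%. A further Lipe start, chr7:25390063-25390362 on the minus strand, had none of the motifs, although its GC content (60%) was close to that of the first (61%) and above that of Adig (49%). The array has 1 primer well for Lipe, so these values do not tell the starts apart, and a motif match describes letters and not a bound site.

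HFD vs. ND asks how the high fat diet altered these genes in liver without the pool. All 4 members had a fold change below 0.5, the limit the study used for downregulation, and so did 72.6% of the 84 genes, while 3.57% were above 1.5-fold. A share of that size on the array means that the count alone does not set the members apart. Adig was lowest (log2 fold change -5.38, a fold change of 0.024), followed by Lipe (-3.27, 0.104), Lpl (-2.35, 0.197) and Fabp4 (-1.76, 0.295). With the sign turned, as in the published direction, the same Ct values would put HFD above ND by 41.7-fold for Adig, 9.62-fold for Lipe, 5.09-fold for Lpl and 3.39-fold for Fabp4. As the columns are labelled, the median of the members was -2.81, and that of all array genes was -2.53. Of the 84 genes 20 were lower than Adig, while Lpl and Fabp4 lay above the array median by 0.18 and 0.77.

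The reference decided the size of these values and, for some members, their direction. With the reference genes taken singly Adig lay between -6.35 (Actb) and -4.64 (Hprt), Lipe between -4.23 and -2.52, Lpl between -3.31 and -1.60, and Fabp4 between -2.73 and -1.02. When the median Ct of the array genes served as the reference, Adig (-2.69) and Lipe (-0.58) stayed lower in HFD, and Lpl (0.34) and Fabp4 (0.93) were higher.

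HFD + pool vs. HFD addresses the pool under the high fat diet. All 4 members had a fold change above 1.5, the limit for upregulation, and so did 84.5% of the array genes, with 1.19% below 0.5-fold. Here too the count matched that of most genes. The log2 fold change was 1.79 for Adig (a fold change of 3.45), 1.53 for Lipe (2.88), 1.46 for Lpl (2.75) and 0.98 for Fabp4 (1.97). With the sign turned the fold changes would be 0.290, 0.347, 0.363 and 0.509 in the same order, Fabp4 then being between the limits. The members lay within 0.81 of each other, with a median of 1.49 beside 1.46 for the 84 genes. Lpl differed from the array median by less than 0.01 and Lipe by 0.07.

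Another reference shifts all members by the same amount, and Fabp4, with the smallest value, was the member that crossed 0. Its log2 fold change was 0.17 with Hprt alone, 1.98 with Gapdh alone and -0.28 with the median of the array genes. Lpl (0.21), Lipe (0.27) and Adig (0.53) stayed above 0 with that median, short of the limit of 1.5-fold.

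**Figure D2:**
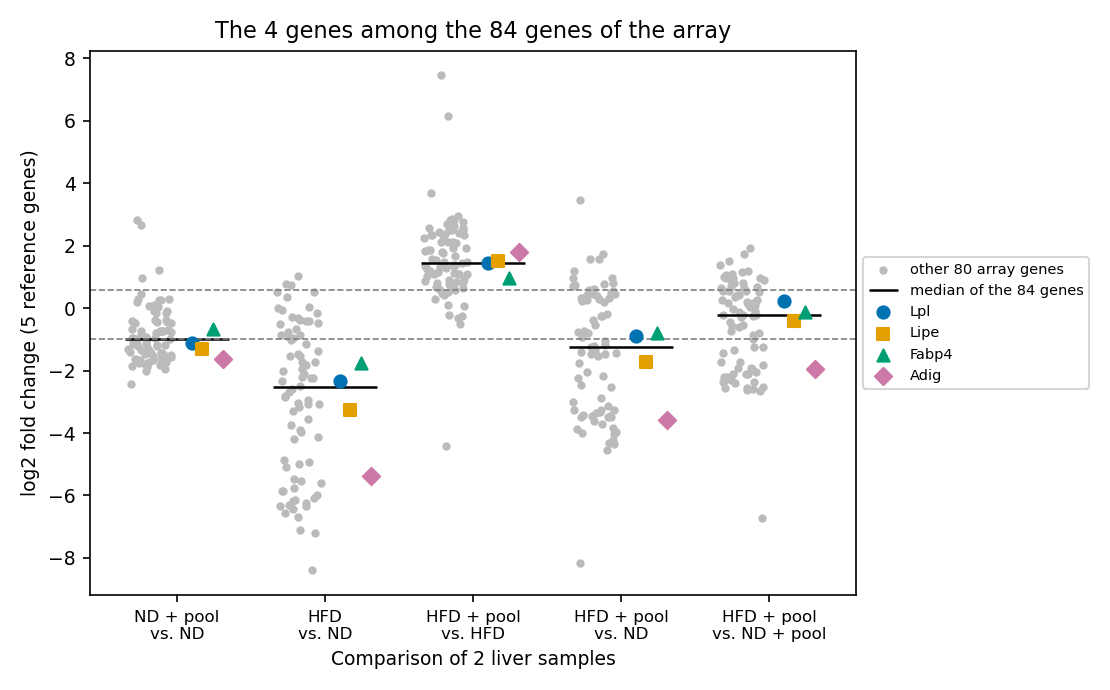
Log2 fold change of Lpl, Lipe, Fabp4 and Adig (coloured symbols) in 5 comparisons of liver samples, each point a difference between 2 samples without replicates. Grey points are the other 80 array genes, black lines the median of the 84 genes, and dashed lines the limits of 1.5-fold and 0.5-fold. In HFD + pool vs. HFD the members lay near the array median, and Adig lay below it in each comparison with an ND group.

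HFD + pool vs. ND compares the treated high fat diet with the plain normal diet. Adig (log2 fold change -3.59) and Lipe (-1.74) were below 0.5-fold, as were 53.6% of the array genes, and none of the members was above 1.5-fold, where 14.3% of the genes were. Lpl (-0.89) and Fabp4 (-0.78) were between the limits. Only 12 of the 84 genes were lower than Adig. The published account has more genes up than down here, with Lpl among those up. With the sign turned the fold changes would be 12.1 for Adig, 3.34 for Lipe, 1.85 for Lpl and 1.72 for Fabp4. Turning the sign does not recover the published values of this comparison. It would put Cfd (log2 fold change 3.47) down and Dio2 (-3.44) above 1.5-fold. The published account has Cfd up and Dio2 between the limits. Lpl and Fabp4 were higher in the pool-treated sample with Gapdh alone (0.67 and 0.77) and both were below 0.5-fold with Hsp90ab1 alone, Lpl at -2.10.

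On the normal diet, ND + pool vs. ND, 3 members had a fold change below 0.5, beside 48.8% of the array genes, and 0 were above 1.5-fold, beside 4.76%. These were Adig (log2 fold change -1.63), Lipe (-1.32) and Lpl (-1.12), while Fabp4 (-0.65) was between the limits. With Gapdh alone as the reference Fabp4 was at 0.08, and Adig (-0.90), Lipe (-0.58) and Lpl (-0.38) were then between the limits as well.

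When the diets were compared among the pool-treated samples, HFD + pool vs. ND + pool, 1 member was below 0.5-fold, as were 34.5% of the genes, and 0 were above 1.5-fold, where 23.8% of the genes were. The member was Adig, at -1.96. Lipe (-0.42), Fabp4 (-0.13) and Lpl (0.23) lay between the limits and changed direction with the reference gene. The ND and HFD samples of these comparisons are shared between them, so the comparisons are not independent of each other.

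By the column labels, the pool thus went with lower values of all 4 members on ND and with higher values on HFD, and 66 of the 84 genes (78.6%) showed that order. The change with the pool on HFD minus that on ND was 3.42 for Adig, 2.85 for Lipe, 2.58 for Lpl and 1.63 for Fabp4 (log2), beside a median of 2.28 for the array. With 1 sample in each group this difference was not tested. It was positive with every reference gene taken singly, the lowest value being 0.95 for Fabp4, and with the median of the array genes it was -0.54 for Fabp4 and 0.41 to 1.25 for the other members.

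**Figure D3:**
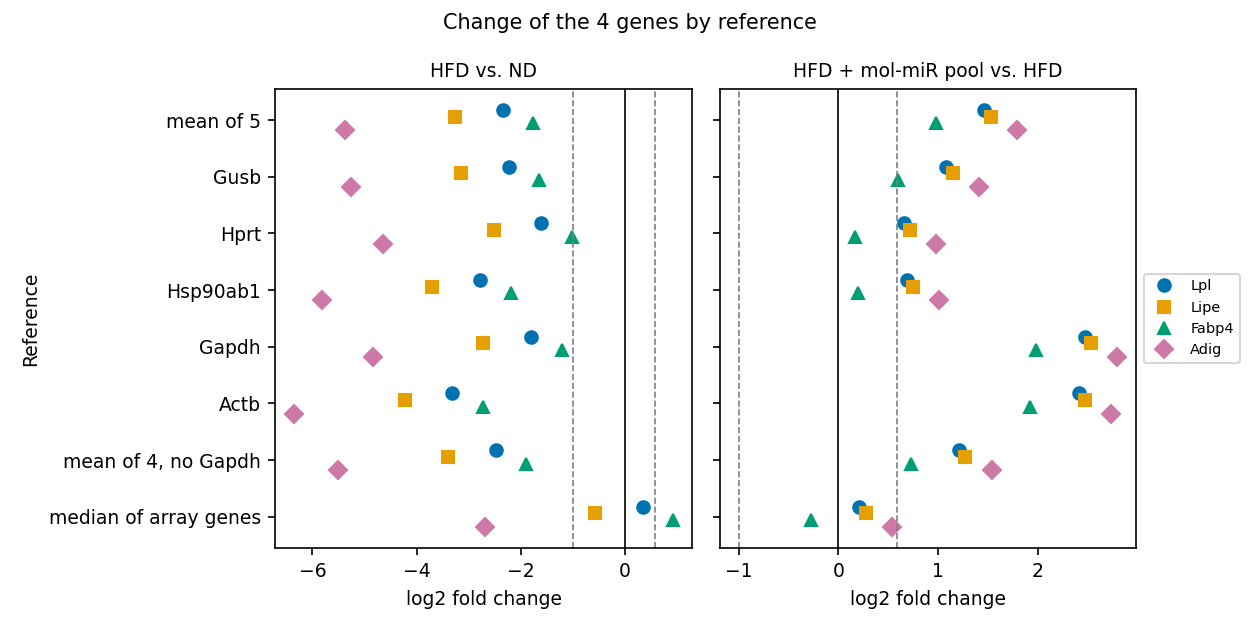
Log2 fold change of the 4 genes in HFD vs. ND (left) and HFD + pool vs. HFD (right), recalculated with each reference named on the vertical axis. Dashed lines mark 1.5-fold and 0.5-fold and the solid line no change. Adig stayed below 0.5-fold in HFD vs. ND with every reference shown, and Fabp4 crossed 0 in both panels with the median of the array genes.

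The difference in Ct between 2 members of the same plate contains no reference gene. The Ct of Fabp4 minus that of Adig was -2.45 cycles in ND, -3.43 in ND + pool, -6.07 in HFD and -5.26 in HFD + pool. The ratio of Fabp4 to Adig template was therefore 12.3 times higher in HFD than in ND. This pair varied by 3.62 cycles over the samples, beside a median of 2.80 for the 3321 pairs of array genes with a Ct everywhere. Adig also lost 3.03 cycles to Lpl and 2.12 cycles to Lipe between ND and HFD, and regained 0.33 and 0.26 cycles with the pool. In ND Adig came only 1.39 cycles before the genomic DNA control, and that control was 7.88 cycles later in HFD. The part of genomic DNA in the changes of the pairs with Adig was not tested.

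Lpl and Fabp4, the lipase of uptake and the fatty acid carrier, kept closest together. The Ct of Lpl minus that of Fabp4 was -0.62 cycles in ND, -0.15 in ND + pool, -0.03 in HFD and -0.52 in HFD + pool. Their difference varied by 0.59 cycles over the samples, and the 3321 pairs of array genes with a Ct everywhere varied by a median of 2.80 cycles. The lipases Lpl and Lipe moved apart by 0.92 cycles between ND and HFD, Lipe being the later one.

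**Figure D4:**
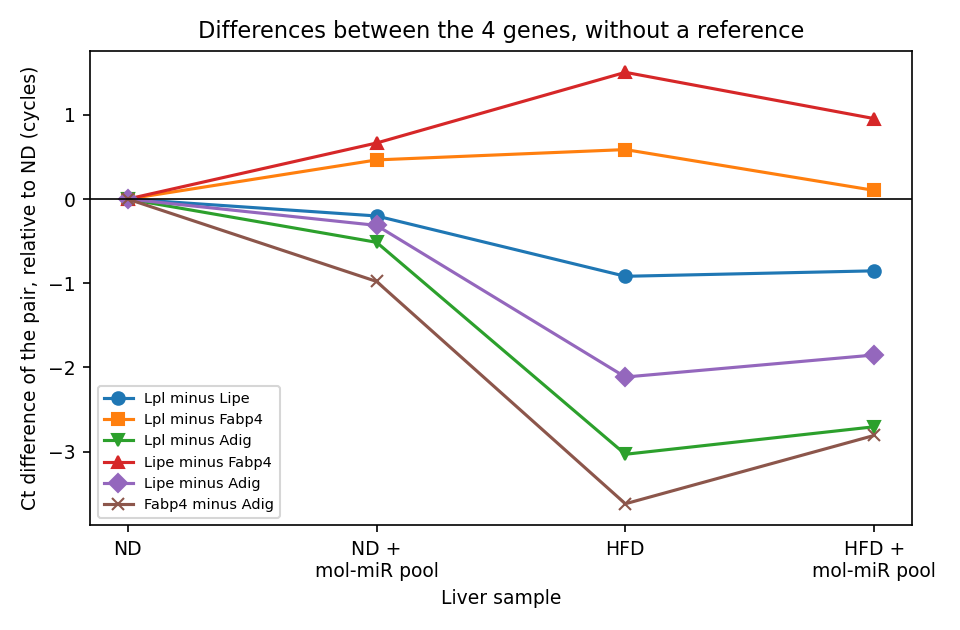
Difference in Ct (cycles) within each pair of the 4 genes, minus the value of the same pair in ND, in the 4 liver samples. No reference gene enters these values and there is 1 well per gene. The pairs with Adig changed most between ND and HFD, by 2.12 to 3.62 cycles, and Lpl minus Fabp4 least, by 0.59.

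The profiles of the 4 members over the samples were then compared with those of the other array genes. Likeness was the root mean square difference between profiles centred on their own mean, over 4 samples that share their reference genes. Nearest to Lpl were E2f1 (0.14 cycles), Src (0.16) and Insr (0.18). For Fabp4 they were Bmp4 (0.19), E2f1 (0.21) and Nrf1 (0.22), and Lpl ranked 5 in that order. Creb1 (0.17) and Cdkn1a (0.17) were nearest to Lipe. Adig was most like Sfrp1 (0.12), Bmp2 (0.13) and Cebpd (0.23), and 27 array genes were nearer to it than Lipe, the closest of the other members (0.93).

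The genomic DNA control moved with these results. In ND the Ct of Lipe was 1.25 cycles earlier than that of the control and the Ct of Adig 1.39 cycles, and 63 of the 84 genes lay within 3 cycles of it. Fabp4 was 3.84 and Lpl 4.46 cycles earlier there. In ND + pool the distances were 1.26 cycles for Adig, 1.43 for Lipe, 4.69 for Fabp4 and 4.84 for Lpl. In HFD they were 3.57 for Adig, 5.53 for Lipe, 9.63 for Fabp4 and 9.66 for Lpl.

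Relative to the control, all members were thus farther from it in HFD than in ND, Lpl by 5.21 cycles, Fabp4 by 5.79, Lipe by 4.29 and Adig by 2.17, and so were all 83 array genes with a Ct in both samples. Between HFD and HFD + pool the distance of the members changed little, by -0.11 cycles for Lpl, -0.04 for Lipe, -0.59 for Fabp4 and 0.22 for Adig. In HFD vs. ND the 63 genes within 3 cycles of the control in ND, Lipe and Adig among them, had a median log2 fold change of -3.30, and the other 21 genes, Lpl and Fabp4 among them, one of -0.86. The part of genomic DNA in the Ct of Lipe and Adig was not tested.

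**Figure D5:**
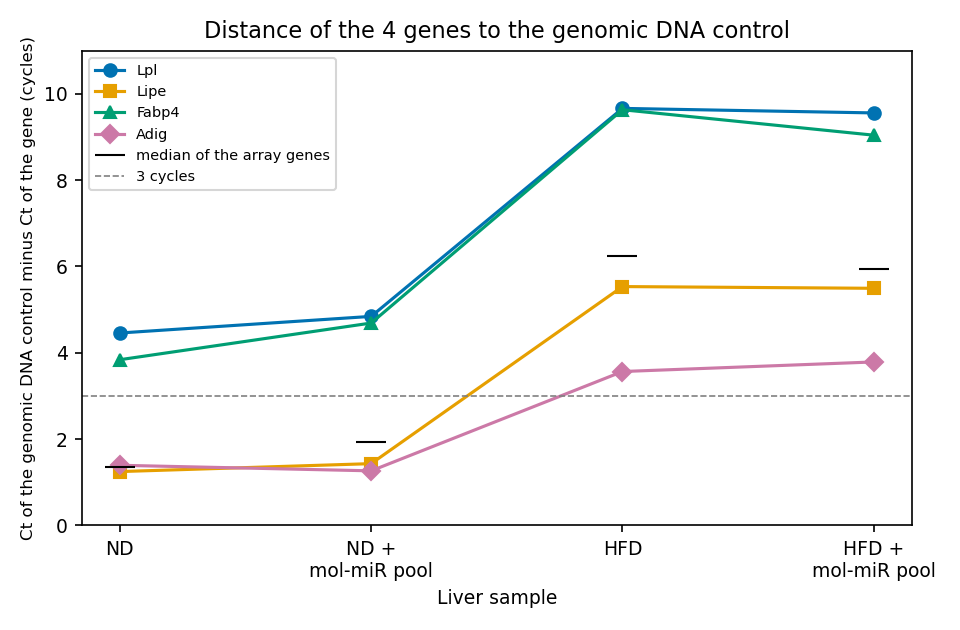
Ct of the genomic DNA control minus Ct of the gene (cycles) for the 4 genes in the 4 liver samples, with the median of the array genes as black bars and a dashed line at 3 cycles. Lipe and Adig lay under 3 cycles in ND and ND + pool and above it in the HFD samples, and Lpl and Fabp4 lay above 3 cycles in all samples.

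Markers of the tissue were read on the same plates. Agt, Nr0b2, Cebpa and Ppara, genes of high expression in liver, had a Ct in all samples, between 23.3 and 26.7, and their summed level was 98.0% of the reference level in ND, 97.0% in ND + pool, 77.1% in HFD and 113% in HFD + pool. The white adipocyte markers Adipoq, Lep, Retn and Cfd also had a Ct in all samples, and their summed level was 27.8%, 81.6%, 0.973% and 135% in the same order. Cfd, the gene of adipsin, alone was at 12.0% in ND, 76.2% in ND + pool, 0.762% in HFD and 133% in HFD + pool. It made up most of the sum in the pool samples and in HFD. Without it the sums were 15.7%, 5.39%, 0.211% and 1.13%. Lipe, Fabp4 and Adig had the order of these sums, whereas Lpl was higher in HFD + pool than in ND + pool. No member had the order of the full sum, which was highest in HFD + pool. The median log2 fold change of all array genes against ND was -0.99 in ND + pool, -1.24 in HFD + pool and -2.53 in HFD. The array median thus had the order of the sums without Cfd, so that order does not set the adipocyte markers apart. Ucp1, Dio2 and Prdm16, markers of brown adipocytes, summed to 13.8%, 4.71%, 0.216% and 1.09%. In ND all 4 white and all 3 brown markers lay within 3 cycles of the genomic DNA control, and in HFD 3 of the 4 and all 3 did. In whole liver, fewer cells of a type and less RNA per cell cannot be told apart, and the part of adipose cells in the values of the members was not tested.

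Genes that act on fat uptake and lipolysis were taken from lists. Of 9 transcription factors of lipid genes, 6 were below 0.5-fold in HFD vs. ND and 1 was above 1.5-fold. Of all 84 genes 72.6% were below and 3.57% above. The median log2 fold change of the 9 factors was -1.53, beside -2.53 for the array. These factors ranged from Cebpd (-4.99), a factor of early adipocyte differentiation, to Srebf1 (0.75), the factor of fatty acid synthesis. In HFD + pool vs. HFD 8 of the 9 were above 1.5-fold, as were 84.5% of the array genes. Their median was 1.33, beside 1.46 for the array. Pparg, the regulator of adipocyte genes such as Fabp4 and Lpl, was highest (2.49) and Srebf1 lowest (0.43).

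Among genes of the insulin response, Irs1, which encodes a substrate of the insulin receptor, was above 1.5-fold in HFD vs. ND (1.04). Of the 84 genes 3.57% were. In ND Irs1 lay 7.79 cycles above the reference mean, later than the genomic DNA control at 5.16 cycles. The part of genomic DNA in its change was not tested. Insr (-2.58), the gene of the insulin receptor, and the glucose transporter gene Slc2a4 were below 0.5-fold in HFD vs. ND, as were 72.6% of the genes. Slc2a4 was between the limits with the pool on HFD (-0.52). Of the enzymes of fatty acid synthesis, Acacb (-0.04) and Fasn (0.51) were between the limits in HFD vs. ND, as were 20 of the 84 genes. In ND Acacb lay 4.32 cycles above the reference mean, close to the genomic DNA control. These values use the 5 reference genes only. In HFD + pool vs. HFD Acacb (1.02) was above 1.5-fold, as were 84.5% of the genes, and Fasn (-0.23) was not.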

How the data were processed

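Liver RNA had been reverse transcribed and run on a mouse adipogenesis PCR array with SYBR Green detection. The authors deposited a score per well, the Ct as exported, without normalization. A further table of fold changes from the authors' own comparisons was not used. Baseline and threshold settings are not given in the sources used here. The columns were assigned by name, low fat diet standing for ND.

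Wells without a Ct and values above 35 were set to 35 (no member was affected), the mean Ct of the 5 reference genes was subtracted, and fold changes assumed a doubling per cycle. Fold changes above 1.5 and below 0.5 were counted, the limits of the study. With 1 sample per group no test was made. The members and lists were chosen with earlier results of these data known. The genes named are the members, the reference genes and control wells, the 3 nearest profiles of each member, the marker genes, and the highest and lowest gene of each list. A gene that the rule names, and the counts of its list, are not reported here. Alternatives were 7 other references, other Ct limits, other fold change limits, and the omission of members within 3 cycles of the MGDC. All 84 symbols matched RefSeq (GRCm38.p6). The calculation was tested on simulated data in which all reference genes of a plate shifted alike. That checks the arithmetic only, and not the effect of reference genes that disagree or of genomic DNA. Python 3.11.15, numpy 2.4.6, pandas 2.3.3 and matplotlib 3.10.9 were used.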

Additional observations from a re-analysis of the deposited data

Results flagged for a closer look

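By the column labels, all members were lower with the *mol*-miR pool on ND and higher with it on HFD. The published direction for the pool on HFD is the opposite one, and which is right was not tested. The difference of the changes (log2) was 2.58 for Lpl, 2.85 for Lipe, 1.63 for Fabp4 and 3.42 for Adig. For Lpl the same 2.58, read as the change with HFD, separates -2.35 without the pool from 0.23 with it. It is no further result, and the 0.23 was -0.26 with Gusb alone and -0.44 with Hsp90ab1 alone. None of these differences was tested, since each group had 1 sample, and the array genes had a median of 2.28 for the first difference.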

How the results depend on the processing

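Of the 180 recalculated values of single members, 139 kept their direction and their side of the fold change limits. Both numbers include the recalculations with no Ct limit and with a limit of 32. These could not alter a member, since the latest Ct of any member was 31.1, so only the other references could change a value. With the median Ct of the array genes as the reference, Lpl (0.34) and Fabp4 (0.93) reversed in HFD vs. ND, and Fabp4 reversed in HFD + pool vs. HFD (-0.28) and in HFD + pool vs. ND (0.65), where Lpl also changed sign (0.54). With Gapdh alone, Lpl (0.67) and Fabp4 (0.77) reversed in HFD + pool vs. ND, and Fabp4 in HFD + pool vs. ND + pool (0.69). Between the limits, Fabp4 in ND + pool vs. ND also turned positive with Gapdh alone (0.08) and the array median (0.26), and in the comparison of the pool-treated samples Lpl turned negative with Gusb (-0.26) or Hsp90ab1 (-0.44) alone, Lipe positive with Gapdh alone (0.40) and the array median (0.075), and Fabp4 positive with Actb alone (0.16) and the array median (0.365). The members below 0.5-fold in ND + pool vs. ND numbered 0 with Gapdh alone or the array median and 1 without the members near the MGDC. In HFD vs. ND the array median gave 1 member below 0.5-fold and 1 above 1.5-fold, and 2 were below without the members near the MGDC. In HFD + pool vs. HFD the array median gave 0 members above 1.5-fold. In HFD + pool vs. ND the members below 0.5-fold numbered 4 with Gusb alone, Hsp90ab1 alone, the 4 references other than Gapdh, or a lower limit of 1/1.5, 1 with Gapdh alone or the array median, and 0 without the members near the MGDC, and those above 1.5-fold numbered 2 with Gapdh alone and 1 with the array median. Beyond what these references imply by construction, the cause was not tested. No paired analysis was possible because each group has 1 sample. The other counts stayed within 1.5 times.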
